A study of Rattus norvegicus with 30 samples.

Results

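The comparison was made between rat bone marrow mesenchymal stem cells (BMSCs) kept for 72 h in osteogenic medium (OS) and the same cells kept for 72 h in adipogenic medium (AD). The members were the 3 OS and the 3 AD samples labelled 3d, that is 6 of the 30 samples of the series, and they were compared directly with each other. The BMSCs came from the bone marrow of female Sprague Dawley rats and were induced at low passage, and each sample pooled RNA from several cultures. Both groups were therefore primary stromal cells with no stated genetic change that differed in the medium; samples from uninduced cells at 0 h served as a reference level, and uninduced cells held for 72 h were not analysed here. Nothing in the labels tied the 3 samples of a group to different animals, so the p-values measure the spread between these samples.

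BMSCs can mature into osteoblasts, the cells that lay down and mineralize bone matrix, or into adipocytes, which store triglyceride. Runx2 and Sp7 drive the osteoblast programme, whereas Pparg and the C/EBP factors drive the adipocyte programme. Adipogenic media usually hold a glucocorticoid, insulin and an agent that raises cyclic AMP, and osteogenic media usually hold a glucocorticoid with ascorbate and a phosphate donor. At 72 h cells in either medium are early in these programmes.

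Expression was given in CPM, that is reads of a gene scaled to a common library size, and the reads behind each value could be recovered. The OS samples held 6409225 to 6702790 reads and the AD samples 5616285 to 6313113 reads, so that a count of 3 reads stood for 0.448 to 0.534 CPM. The 9999 gene names of the table took up 56.5 to 59.5% of the reads in OS but 47.9, 49.0 and 38.9% in AD replicates 1, 2 and 3, and a gene was tested when it reached 1 CPM in at least 3 of all samples, which left 4363 genes. Some genes that every cell uses were close to 0 in all 6 samples: Actb lay between 0.624 and 1.60 CPM, Vim between 0 and 0.156 CPM, and Ppia and Pfn1 were listed at 0, whereas the ribosomal protein gene Rplp0 lay between 2075 and 5819 CPM. A gene at 0 is for this reason described as listed at 0 and not as silent. In bulk RNA, fewer cells of a type and less RNA per cell cannot be told apart.

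AD replicate 3 lay apart from the other AD samples. AD replicates 1 and 2 correlated with r = 0.9888 across the tested genes and differed by more than 2 log2 units at 3 genes. The pairs with AD replicate 3 gave r = 0.9725 and 0.9705 and differed by that much at 77 and 81 genes. Against the mean of the other AD samples, 74 genes stood more than 2 log2 units away in replicate 3, 71 of them lower and 3 higher. Every result below was therefore also computed without it, and the value is given where a call was lost or gained or the value moved by more than 1.5 times.

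Between OS and AD, 599 of 4363 genes differed at 72 h (13.7%), with a log2 fold change of at least 1 and an adjusted p below 0.05 by limma on log2(CPM + 1). Of these, 402 were higher in OS (9.21%) and 197 were lower in OS (4.52%). The 3 samples of a group lay entirely above the 3 of the other at 1966 genes (45.1%), with OS above at 1433 (32.8%) and AD above at 533 (12.2%). Without AD replicate 3 the test called 527 genes (12.1%), of which 302 were higher in OS (6.92%), 225 were lower (5.16%) and 455 were shared with the calls on all samples.

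The split between the directions depended on the scaling. CPM refers to all reads of a library, of which the table held a smaller share in AD. Scaling by median ratios over the listed genes moved the median difference by -0.27 on the log2 scale and gave 237 genes higher in OS (5.43%) and 332 lower (7.61%), so that 41.7% of the calls were higher in OS against 67.1% as deposited. Of these 569 calls, 434 were shared with the calls on deposited values. A gene is described below by its deposited values, and where the call did not hold after median-ratio scaling this is said. On the recovered reads edgeR likewise did not call these genes, except Id2 and Nuf2, nor Pparg, Plau, Ndrg1, Ifit1 and Tek. The large differences are far beyond a shift of this size, as the plot of level against difference shows.

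**Figure D1:**
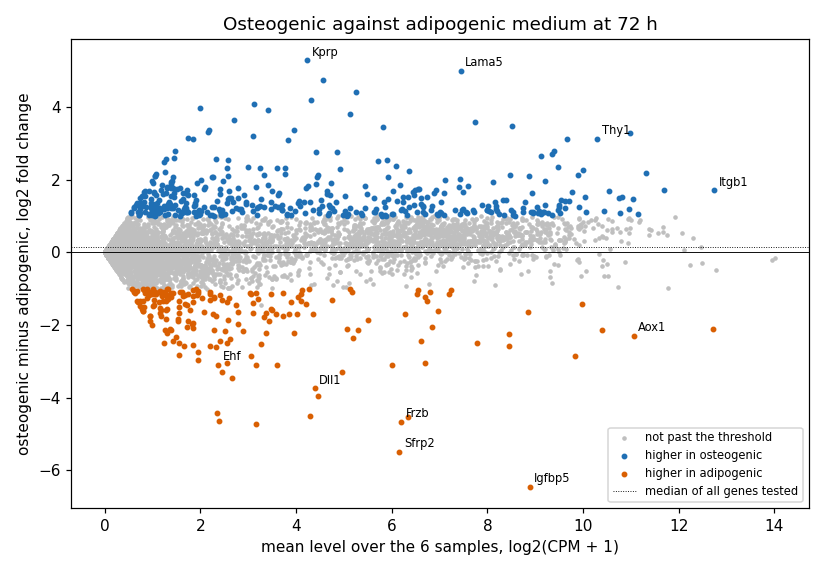
Each point is 1 of the 4363 tested genes, with its mean level over the 6 samples on the x axis in log2(CPM + 1) and the log2 fold change of OS minus AD on the y axis. Blue points are the 402 genes higher in OS, orange points the 197 genes lower in OS, and the dotted line marks the median of all genes at 0.16; Lama5 lies near the top at a high level and Igfbp5 at the bottom.

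Lama5 and Cspg4 were among the 15 genes with the largest difference towards OS, which like the 15 towards AD were taken from genes without overlap between the groups. Thy1 and Itgb1 were the called genes of the stromal marker list. That list had 5 tested members with a median log2 fold change of 0.01, against 0.16 for all genes. Lama5, which encodes the laminin alpha 5 chain of basement membranes, had 945, 982 and 1008 CPM in OS and 31.5, 28.02 and 30.3 CPM in AD. The AD samples held the gene at a tiny fraction of the OS level (log2 fold change 4.99, SE 0.18, adjusted p = 6.54e-19), and cells at 0 h had 869 ± 7.87 CPM (SD, n = 3), close to OS. Cspg4, the NG2 proteoglycan of pericytes and stromal progenitors, had 81.01, 81.3 and 86.6 CPM in OS and 4.27, 3.72 and 3.01 CPM in AD (log2 fold change 4.18, SE 0.25, adjusted p = 1.26e-13). Thy1, the CD90 antigen by which mesenchymal stem cells are recognised, had 3788, 3638 and 3695 CPM in OS and 387, 431 and 462 CPM in AD. All OS samples stood far above all AD samples (log2 fold change 3.12, SE 0.11, adjusted p = 6.54e-19), while 0 h cells had 8052 ± 283 CPM (SD, n = 3), above either medium. Itgb1, the beta 1 integrin chain that pairs with many alpha chains in matrix receptors, had 11544, 12312 and 13089 CPM in OS and 4133, 3911 and 3311 CPM in AD (log2 fold change 1.71, SE 0.12, adjusted p = 4.44e-12). At these 4 genes AD replicate 3 lay with the other AD samples or further from OS, and leaving it out or scaling by median ratios kept each call.

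Sema7a, Cd109, Cadm4, Sema3d and Itgbl1 were also among the 15 genes with the largest difference towards OS. Sema7a, a membrane-anchored semaphorin that binds integrins, had 40.9, 35.6 and 45.4 CPM in OS and 1.96, 1.60 and 1.74 CPM in AD (log2 fold change 3.91, SE 0.17, adjusted p = 3.22e-17). Cd109, a surface protein that binds TGF-beta, had 128, 122 and 137 CPM in OS and 9.97, 14.5 and 3.80 CPM in AD (log2 fold change 3.79, SE 0.25, adjusted p = 8.09e-13). Cadm4, an adhesion molecule of the immunoglobulin superfamily, had 15.8, 22.8 and 28.5 CPM in OS and 0.356, 2.13 and 0.475 CPM in AD (log2 fold change 3.63, SE 0.31, adjusted p = 1.70e-10). Sema3d, a secreted semaphorin, had 1099, 1285 and 1296 CPM in OS and 283, 243 and 18.2 CPM in AD, where replicate 3 was far below the other AD samples; the log2 fold change was 3.48 with it and 2.22 without it. Itgbl1, a secreted protein with integrin-like repeats, had 685, 753 and 791 CPM in OS and 163, 160.0 and 7.92 CPM in AD, again with the lowest value in replicate 3 (3.59 with it, 2.19 without it). Both genes were called in either case, and without AD replicate 1 the values were larger, 4.16 and 4.29; without AD replicate 2 Itgbl1 had 4.28.

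Cryab, Smpd3 and Ramp1 belonged to the same 15 genes. Cryab, a small heat shock protein, had 154, 184 and 187 CPM in OS and 14.1, 16.8 and 1.11 CPM in AD (4.40 with replicate 3, 3.42 without it). Smpd3, the neutral sphingomyelinase that bone and cartilage need for mineralization, had 12.98, 15.9 and 11.6 CPM in OS and 1.07, 0.355 and 0 CPM in AD (log2 fold change 3.35, SE 0.27, adjusted p = 6.36e-11). Ramp1, which turns the calcitonin receptor-like receptor into a receptor for CGRP, had 16.4, 12.2 and 16.1 CPM in OS and was listed at 0 in all AD samples. Set against a floor of 3 reads per library, this was at least 27.9-fold higher in OS (log2 fold change 3.98, SE 0.19, adjusted p = 4.38e-16). Further genes among the 15 with the largest difference were Kprp, Plac9, Rarres1 and Sv2c, with log2 fold changes of 5.28, 4.06, 3.43 and 3.37. Kprp was the only 1 of these 4 whose value moved by more than 1.5 times without AD replicate 3, to 4.48.

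**Figure D2:**
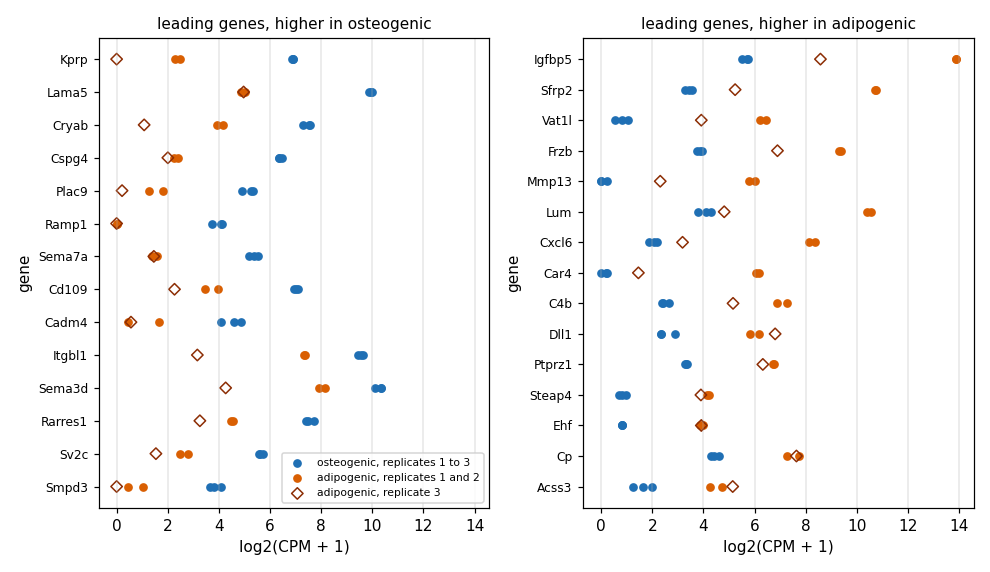
The level of 14 leading genes higher in OS and 15 lower in OS is shown on the x axis in log2(CPM + 1), 1 point per sample, with genes in rows. OS samples are blue and AD replicates 1 and 2 orange, the genes were chosen without overlap between the groups, and AD replicate 3 (open diamond) lies below AD replicates 1 and 2 at 21 of the 29 genes, for Igfbp5 at 380 CPM against 14952 and 14956.

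Igfbp5, Sfrp2, Frzb and Lum, which encode secreted proteins, were among the 15 genes with the largest difference towards AD. Igfbp5, which binds insulin-like growth factors, had 44.2, 51.8 and 53.2 CPM in OS and 14952, 14956 and 380.5 CPM in AD. In AD, replicate 3 had a small part of the level of the other AD samples; the log2 fold change was -6.44 (SE 0.74, adjusted p = 4.70e-08) with it and -8.21 without it. Sfrp2, a secreted Wnt antagonist, had 9.70, 10.8 and 8.74 CPM in OS and 1702, 1696 and 36.7 CPM in AD (log2 fold change -5.48, SE 0.75, adjusted p = 1.08e-06; -7.31 without replicate 3). Frzb, another secreted frizzled-related protein, had 12.5, 13.7 and 14.3 CPM in OS and 673, 623 and 118 CPM in AD (log2 fold change -4.67, SE 0.40, adjusted p = 1.82e-10; -5.48 without replicate 3). Lum, a small proteoglycan that spaces collagen fibrils, had 12.8, 16.1 and 18.8 CPM in OS and 1355, 1513 and 27.1 CPM in AD (log2 fold change -4.53, SE 0.75, adjusted p = 1.67e-05; -6.42 without replicate 3). At Sfrp2, Frzb and Lum the difference from OS in replicate 3 was the smallest of the AD samples.

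Mmp13, Car4, C4b and Vat1l showed the same uneven AD group. Mmp13, the collagenase of cartilage and bone remodelling, had 0, 0.156 and 0 CPM in OS, 1 read in all, and 53.6, 64.4 and 3.96 CPM in AD. The ratio of AD to OS over pooled reads was 775 (95% exact interval 139 to 30636), an interval that covers counting error only. Car4, a membrane carbonic anhydrase, had 0, 0.156 and 0.151 CPM in OS, 2 reads in all, and 66.1, 70.6 and 1.74 CPM in AD. C4b, a complement component, had 4.18, 4.37 and 5.27 CPM in OS and 117, 153 and 34.7 CPM in AD (log2 fold change -3.95, SE 0.35, adjusted p = 2.97e-10). Vat1l, a gene of little known function, had 1.04, 0.78 and 0.452 CPM in OS and 73.7, 85.1 and 14.1 CPM in AD. In each of these the lowest AD sample was replicate 3, and each was called with and without it; when it was left out the fitted change moved from -4.42 to -5.98 for Car4, from -4.63 to -5.83 for Mmp13, from -4.72 to -5.53 for Vat1l and from -3.95 to -4.59 for C4b.

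Leaving out AD replicate 1 or 2 in place of replicate 3 gave replicate 3 more weight and made these differences smaller. The log2 fold changes were then -5.56 and -5.56 for Igfbp5, -4.56 and -4.57 for Sfrp2, and -3.62 and -3.54 for Lum. For Car4 they were -3.67 and -3.62, in place of -4.42, and for Mmp13 the value without replicate 2 was -3.97. All these calls held.

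At another set of AD genes replicate 3 was not far below the other AD samples. Dll1, a Notch ligand, had 4.03, 4.06 and 6.33 CPM in OS and 70.7, 54.8 and 111 CPM in AD (log2 fold change -3.74, SE 0.37, adjusted p = 2.97e-09). Ptprz1, a receptor tyrosine phosphatase that binds pleiotrophin, had 9.25, 8.89 and 8.74 CPM in OS and 109, 104 and 79.04 CPM in AD (log2 fold change -3.29, SE 0.33, adjusted p = 4.57e-09). Cp, the copper carrier ceruloplasmin, had 23.7, 18.9 and 20.3 CPM in OS and 153, 214 and 198 CPM in AD (log2 fold change -3.10, SE 0.22, adjusted p = 5.69e-12). At Dll1 the highest AD sample was replicate 3. Steap4, a metalloreductase found in adipose tissue, had 0.746, 0.936 and 0.603 CPM in OS and 17.8, 16.7 and 13.9 CPM in AD, summed over 3 rows of the table with that name (log2 fold change -3.28, SE 0.22, adjusted p = 8.09e-13). Ehf, an epithelial ETS factor, had 0.746, 0.78 and 0.753 CPM in OS and 13.5, 14.7 and 14.1 CPM in AD (log2 fold change -3.10, SE 0.26, adjusted p = 9.32e-11). Acss3, an acyl-CoA synthetase of mitochondria, had 2.09, 2.96 and 1.36 CPM in OS and 25.8, 18.1 and 34.4 CPM in AD (log2 fold change -3.10, SE 0.36, adjusted p = 6.23e-08). For all 6 of these genes the call held without AD replicate 3 and after median-ratio scaling.

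The plot of AD replicate 3 against the other AD samples sets out how the genes called without that sample behaved in it. Of the 302 genes higher in OS in that fit, replicate 3 lay below all OS samples at 295 and was further from the OS mean than the mean of the other AD samples at 184. Of the 225 genes lower in OS, it lay above all OS samples at 173, and at 97 it was nearer to the OS mean than to the mean of the other AD samples. Replicate 3 thus lay mostly on the AD side of OS in both directions, further out at the OS genes and closer in at the AD genes. Its listed genes also held the smallest share of reads, 38.9%; the part this played in the difference was not tested.

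**Figure D3:**
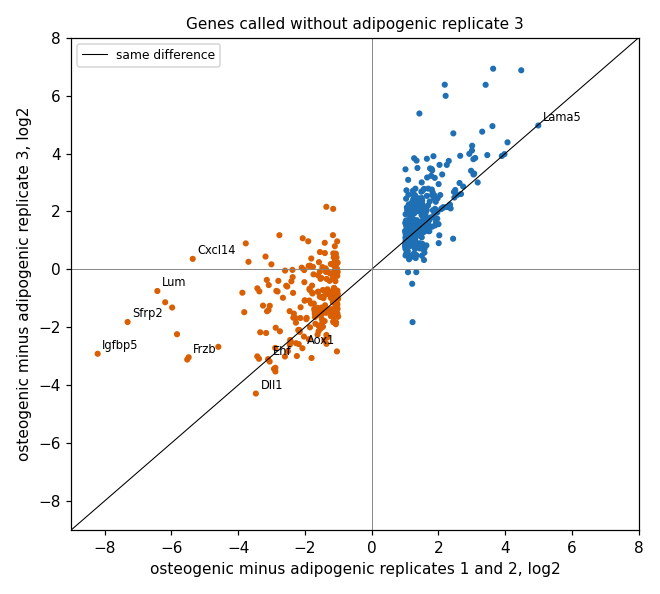
For the 527 genes called without AD replicate 3, the x axis gives the difference of the OS mean from AD replicates 1 and 2 and the y axis the difference of the OS mean from AD replicate 3, both in log2(CPM + 1). Genes on the line have the same difference; at 184 of the 302 genes higher in OS (blue) replicate 3 is further from OS than the mean of the other AD samples, and Igfbp5, Sfrp2 and Lum lie well above the line.

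The labels of the 2 media were checked against lineage markers. In the osteoblast list, Sp7 was listed at 0 in all 6 samples, Alpl lay at or below 0.356 CPM, Spp1 at or below 0.298 CPM and Dlx5 at or below 0.452 CPM. Bglap, the osteocalcin gene, had 0.448, 0.468 and 0.904 CPM in OS and was listed at 0 in AD. In the adipocyte list, Cd36, Cidec and Lep were listed at 0 in all 6 samples. Runx2, Cebpb, Cebpd and Klf15 were not among the 9999 gene names and could not be examined. Of the 30 osteoblast and 38 adipocyte list genes, 19 and 21 were among these names. The defining markers given above were at or near 0 at 72 h, which in this table is also true of Actb and Vim, and the groups are named after their media.

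Of 10 tested osteoblast and mineralization genes, 3 were higher in OS and none was lower, against 9.21% higher and 4.52% lower among all genes; the median log2 fold change was 0.71, against 0.16 for all genes. Without AD replicate 3 the counts were the same and the median was 0.39. The lists that follow are to be read against the same shares of all genes, or 6.92 and 5.16% without AD replicate 3 and 5.43 and 7.61% after median-ratio scaling. Dlx3, a homeobox factor of bone and skin, had 155, 180.4 and 175 CPM in OS and 42.9, 39.01 and 74.6 CPM in AD (log2 fold change 1.74, SE 0.30, adjusted p = 2.21e-05). Msx2, a homeobox factor of skull and tooth, had 20.1, 17.8 and 19.3 CPM in OS and 5.34, 3.37 and 5.39 CPM in AD (log2 fold change 1.84, SE 0.23, adjusted p = 2.08e-07). In both the OS samples were all above the AD samples. The third gene was Smpd3, described above. Ankh, which exports pyrophosphate and citrate, had 339, 278 and 285 CPM in OS and 144, 165 and 163 CPM in AD but did not reach the fold threshold (log2 fold change 0.92, SE 0.11, adjusted p = 6.23e-08). Mgp, an inhibitor of calcification, had 4867, 5545 and 5171 CPM in OS and 5698, 4762 and 9420.4 CPM in AD and did not pass (log2 fold change -0.29, SE 0.23, adjusted p = 0.352).

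Of 13 tested adipocyte and lipid storage genes, 4 were lower in OS and 3 were higher, with a median of 0.23. Gpd1, which makes the glycerol backbone of triglyceride, had 0, 0.312 and 0 CPM in OS, 2 reads in all, and 6.94, 7.27 and 6.18 CPM in AD, and the ratio of AD to OS over pooled reads was 66.9 (95% exact interval 18.1 to 559). Cfd, the serine protease adipsin, had 4.18, 4.52 and 5.12 CPM in OS and 32.9, 31.03 and 7.29 CPM in AD (log2 fold change -1.89, SE 0.32, adjusted p = 1.77e-05; -2.56 without replicate 3). Plin1, which coats lipid droplets, had 0.448, 0.312 and 0.904 CPM in OS and 2.14, 1.42 and 3.48 CPM in AD (log2 fold change -1.08, SE 0.21, adjusted p = 1.03e-04). These 3 genes had no overlap between the groups. Apoe, a lipid carrier, was at the threshold (log2 fold change -1.001, SE 0.30, adjusted p = 0.0079), and without AD replicate 3 neither Plin1 nor Apoe passed (-0.84 and -0.94). Plin1 did not pass without OS replicate 2 (-0.96) either, nor Apoe without OS replicate 3 (-0.71) or AD replicate 2 (-0.87). Lpl, which releases fatty acids from lipoproteins, had 1143, 1037 and 1140.1 CPM in OS and 1160.4, 1387 and 3216 CPM in AD, so that its highest sample was AD replicate 3, and it did not pass (log2 fold change -0.65, SE 0.32, adjusted p = 0.117), although edgeR called it (-1.09).

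The genes of this list that were higher in OS included its best-known regulator. Pparg, summed over 2 rows, had 2.24, 2.50 and 1.81 CPM in OS and 0, 0.177 and 0.95 CPM in AD, all low levels (log2 fold change 1.26, SE 0.20, adjusted p = 9.71e-06); at 0 h it had 0.0464 ± 0.0804 CPM (SD, n = 3). On the recovered reads edgeR did not call Pparg (2.15, adjusted p = 0.083), and it gave 1 gene of the list higher and 5 lower. Fabp5, a fatty acid binding protein of many cell types, had 30.4, 30.4 and 27.6 CPM in OS and 11.8, 13.5 and 12.7 CPM in AD (log2 fold change 1.16, SE 0.16, adjusted p = 1.53e-06), and after median-ratio scaling it no longer passed (0.84). Pnpla2, the lipase that starts triglyceride breakdown, had 5.22, 4.21 and 5.42 CPM in OS and 1.25, 1.42 and 1.27 CPM in AD (log2 fold change 1.36, SE 0.35, adjusted p = 0.00238). All OS samples were above all AD samples at these 3 genes. Cebpa, the partner of Pparg, had 0.597, 0.312 and 1.96 CPM in OS and 0.356, 0.355 and 0.475 CPM in AD, with overlap (log2 fold change 0.40, SE 0.38, adjusted p = 0.459).

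Among the other transcription factors fixed by name, Hopx, a homeodomain protein that does not bind DNA, had 3.43, 4.37 and 4.22 CPM in OS and 0, 0.709 and 0.475 CPM in AD (log2 fold change 1.87, SE 0.31, adjusted p = 1.37e-05). Sox9, the chondrocyte master factor, had 35.7, 29.6 and 30.1 CPM in OS and 14.96, 15.4 and 19.01 CPM in AD and stayed under the fold threshold (log2 fold change 0.91, SE 0.14, adjusted p = 7.69e-06), which it passed without AD replicate 3 (1.01). Tsc22d3, the glucocorticoid-induced leucine zipper, had 599, 784 and 766 CPM in OS and 379, 350.2 and 488 CPM in AD (log2 fold change 0.82, SE 0.15, adjusted p = 8.09e-05), far above 27.8 ± 2.98 CPM (SD, n = 3) at 0 h in either medium. Snai2, a zinc finger repressor of E-cadherin, had 170.2, 171 and 178 CPM in OS and 257, 257 and 298 CPM in AD (log2 fold change -0.64, SE 0.28, adjusted p = 0.0738). Epas1, the hypoxia-inducible factor 2 alpha, gave a log2 fold change of -0.38 (adjusted p = 0.0375) and Klf4 gave 0.77 (adjusted p = 0.0041). In the fit on all samples none of Sox9, Tsc22d3, Snai2, Epas1 and Klf4 was called.

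Of the 131 tested transcription factors that the study had listed, 15 were higher in OS (11.5%) and 5 were lower (3.82%), with a median of 0.12. These shares were near the 9.21 and 4.52% of all genes. That list was chosen on these samples for changes against 0 h, so it is not independent evidence of a direction. After median-ratio scaling the counts were 9 and 9. Irf5, an interferon regulatory factor, had 9.25, 7.96 and 9.34 CPM in OS and 1.42, 1.77 and 0.95 CPM in AD, summed over 2 rows (log2 fold change 2.06, SE 0.29, adjusted p = 1.34e-06). Arid3b, an AT-rich DNA binding factor, had 17.2, 13.9 and 20.3 CPM in OS and 6.94, 4.79 and 6.18 CPM in AD (log2 fold change 1.38, SE 0.19, adjusted p = 9.74e-07). Osr1, an odd-skipped factor of the mesoderm, had 1.04, 0.624 and 0.603 CPM in OS and 6.94, 4.79 and 4.75 CPM in AD (log2 fold change -1.88, SE 0.22, adjusted p = 8.21e-08). The OS and AD samples did not overlap at these 3 genes, and each call held without AD replicate 3 and after median-ratio scaling.

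Of 13 tested inflammatory cytokine and chemokine genes, 6 were lower in OS and 1 was higher, and the median was -0.73 against 0.16 for all genes. Without AD replicate 3 the same list gave 6 lower and none higher, and after median-ratio scaling 6 lower and 1 higher. Cxcl1, a neutrophil attractant, had 603, 592 and 639.9 CPM in OS and 1790.3, 1656 and 1526 CPM in AD (log2 fold change -1.43, SE 0.13, adjusted p = 4.43e-10). Ccl2, the main monocyte attractant, had 149, 172 and 159.6 CPM in OS and 1212, 1530.3 and 233 CPM in AD (log2 fold change -2.24, SE 0.34, adjusted p = 3.98e-06; -3.08 without replicate 3). Ccl7, a neighbour and relative of Ccl2, had 100.4, 84.6 and 91.9 CPM in OS and 958, 1038 and 146 CPM in AD (log2 fold change -2.50, SE 0.36, adjusted p = 2.38e-06; -3.42 without replicate 3). Each had all AD samples above all OS samples, with AD replicate 3 closest to OS at Ccl2 and Ccl7. At 0 h the levels were 3230.0 ± 305 CPM (SD, n = 3) for Cxcl1, 1371 ± 99.4 CPM (SD, n = 3) for Ccl2 and 1130.1 ± 14.9 CPM (SD, n = 3) for Ccl7, so that AD replicates 1 and 2 were near the starting level of the Ccl genes and OS was well below it.

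The other members of this list were at lower levels. Cxcl6, a neutrophil attractant related to Cxcl1, had 2.69, 3.59 and 3.16 CPM in OS and 275, 326 and 8.08 CPM in AD (log2 fold change -4.50, SE 0.67, adjusted p = 3.60e-06; -6.19 without replicate 3). Il6, the acute phase cytokine, had 1.04, 0 and 0.603 CPM in OS and 6.94, 11.5 and 5.54 CPM in AD (log2 fold change -2.54, SE 0.29, adjusted p = 5.43e-08), against 42.3 ± 2.61 CPM (SD, n = 3) at 0 h. Cxcl14, a chemokine of epithelia and stroma, had 0.895, 1.25 and 0.603 CPM in OS and 75.9, 78.03 and 0.475 CPM in AD. Here AD replicate 3 lay below all OS samples, so the groups overlapped and the value depended on that sample (log2 fold change -3.45, SE 0.74, adjusted p = 3.64e-04; -5.36 without it). Without AD replicate 1 or 2 the changes were -2.51 and -2.49 for Cxcl14 and -3.72 and -3.60 for Cxcl6, all called. Il1rl1, the interleukin 33 receptor, was higher in OS (1.82) with AD replicate 3 and just under the fold threshold without it (0.99).

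The promoters of 4 members of this group, from RefSeq, are shown because NF-kB is the classical regulator of these genes. Each is 300 bases long, from 250 before to 50 after the RefSeq start, on build GRCr8, and capitals mark matches to the NF-kB consensus on either strand. Cxcl1 lies at chr14:17479272-17479571, minus strand, Cxcl6 at chr14:17596368-17596667, minus strand, Il6 at chr4:5894526-5894825, minus strand and Ccl7 at chr10:67513845-67514144, plus strand.
Cxcl1: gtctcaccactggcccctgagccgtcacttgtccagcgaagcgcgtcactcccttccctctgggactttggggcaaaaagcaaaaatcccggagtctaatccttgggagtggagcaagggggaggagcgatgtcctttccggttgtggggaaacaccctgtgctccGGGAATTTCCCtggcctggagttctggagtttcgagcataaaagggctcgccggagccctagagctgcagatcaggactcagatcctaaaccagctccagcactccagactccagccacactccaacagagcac
Cxcl6: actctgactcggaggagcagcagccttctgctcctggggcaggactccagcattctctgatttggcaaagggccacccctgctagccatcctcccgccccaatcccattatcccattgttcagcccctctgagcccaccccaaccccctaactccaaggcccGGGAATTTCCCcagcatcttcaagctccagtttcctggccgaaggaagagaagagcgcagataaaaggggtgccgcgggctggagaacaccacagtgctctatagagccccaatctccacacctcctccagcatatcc
Il6: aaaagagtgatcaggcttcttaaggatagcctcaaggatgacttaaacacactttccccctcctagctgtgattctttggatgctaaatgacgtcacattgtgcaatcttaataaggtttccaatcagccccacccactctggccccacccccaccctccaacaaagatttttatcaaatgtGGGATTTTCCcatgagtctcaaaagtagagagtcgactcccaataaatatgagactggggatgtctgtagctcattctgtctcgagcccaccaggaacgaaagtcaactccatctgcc
Ccl7: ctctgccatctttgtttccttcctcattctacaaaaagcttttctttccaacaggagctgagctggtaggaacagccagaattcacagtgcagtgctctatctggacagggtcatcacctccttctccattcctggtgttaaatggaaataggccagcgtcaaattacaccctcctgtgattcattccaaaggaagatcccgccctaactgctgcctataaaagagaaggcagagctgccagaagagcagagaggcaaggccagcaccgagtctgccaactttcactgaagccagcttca
Cxcl1 and Cxcl6 each held 2 overlapping matches, 1 per strand, Il6 held 1 match and Ccl7 held none; of all 33469 promoters in the table, 4.183% held at least 1. A match is a run of letters and was not tested as a binding site.

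Of 22 tested collagen and matrix structure genes, 8 were higher in OS and 3 were lower, with a median of 0.43, and after median-ratio scaling the counts were again 8 and 3. Apart from Lama5 and Itgbl1, the OS genes were led by Loxl3, an oxidase that crosslinks collagen and elastin, with 2322, 2256 and 2569 CPM in OS and 298, 275 and 244 CPM in AD (log2 fold change 3.13, SE 0.19, adjusted p = 2.21e-13). Nid1, which links laminin to collagen IV in basement membranes, had 5804, 5819 and 6217 CPM in OS and 2222, 2129 and 1263 CPM in AD (log2 fold change 1.71, SE 0.13, adjusted p = 1.22e-11). Col8a2, a network-forming collagen, had 709, 709.9 and 802 CPM in OS and 212, 209.8 and 109 CPM in AD (log2 fold change 2.12, SE 0.29, adjusted p = 7.79e-07). These genes were lowest in AD replicate 3, and all were also called without it (3.05 for Loxl3, 1.45 for Nid1 and 1.80 for Col8a2). Loxl2 (1.59), Plod1 (1.40) and Fbn2 (1.42) completed the OS side; Fbn2 dropped under the fold threshold without AD replicate 3 (0.98). On the AD side, Lama4, the laminin alpha 4 chain of vessels and fat, had 0.597, 1.40 and 0.603 CPM in OS and 4.10, 3.55 and 3.33 CPM in AD (log2 fold change -1.34, SE 0.25, adjusted p = 7.37e-05). Fbln1, a fibulin of basement membranes, gave -1.22, and -1.89 without AD replicate 3, and was not called without AD replicate 2 (-0.69). The laminin alpha 4 and alpha 5 genes thus differed in opposite directions.

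Of 14 tested matrix proteases and inhibitors, 4 were higher and 3 lower in OS, against 9.21 and 4.52% of all genes; without AD replicate 3 there were 1 and 3, and after median-ratio scaling 3 and 3. Mmp10, the stromelysin 2 gene, had 0.895, 0 and 0.151 CPM in OS and 9.79, 10.99 and 2.53 CPM in AD (log2 fold change -2.57, SE 0.43, adjusted p = 1.69e-05). Adamts4, an aggrecanase, had 62.96, 55.9 and 73.8 CPM in OS and 147, 146 and 109 CPM in AD (log2 fold change -1.04, SE 0.15, adjusted p = 2.30e-06). With Mmp13 these were the AD genes of this list, and they were called with and without AD replicate 3. Adamts4 was close to the fold threshold and was not called without OS replicate 2 (-0.95), AD replicate 1 (-0.97) or AD replicate 2 (-0.97). The OS genes rested more on AD replicate 3: Serpinf1, the anti-angiogenic factor PEDF, had 3665, 3386 and 3410.0 CPM in OS and 1762, 1988 and 585 CPM in AD, and without replicate 3 its log2 fold change was 0.90 in place of 1.46. Plau (1.38, without it 0.67) and Adamts1 (1.11, without it 0.83) also lost the call, Adamts1 after scaling too (0.77), and edgeR called neither, so that 1 of the 4, Cst6, was called in both fits.

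Of 17 tested genes of the Wnt pathway, 5 were lower in OS and 1 was higher, in the fit on all samples, without AD replicate 3 and after median-ratio scaling alike. Besides the antagonists Sfrp2 and Frzb, the AD genes were Apcdd1, a membrane inhibitor of Wnt signalling, Lgr5, a receptor for R-spondins and stem cell marker, and the ligand Wnt4. Apcdd1 had 2.24, 2.03 and 3.31 CPM in OS and 14.2, 15.8 and 13.9 CPM in AD (log2 fold change -2.17, SE 0.26, adjusted p = 1.28e-07). Lgr5 had 1.49, 2.03 and 1.66 CPM in OS and 32.05, 36.2 and 1.27 CPM in AD, where replicate 3 lay below the OS samples (log2 fold change -2.37, SE 0.55, adjusted p = 9.63e-04; -3.69 without it, -1.76 and -1.67 without replicate 1 or 2). Wnt4 was at low counts, with 0.298, 0.624 and 0.603 CPM in OS and 3.38, 1.06 and 3.64 CPM in AD (log2 fold change -1.21, SE 0.29, adjusted p = 0.00114). Nkd1, an inducible inhibitor of Dishevelled, had 16.1, 14.2 and 14.8 CPM in OS and 4.99, 3.90 and 5.54 CPM in AD (log2 fold change 1.47, SE 0.19, adjusted p = 5.28e-07), the reverse order.

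Of 12 tested TGF-beta and BMP genes, 4 were higher and 2 lower in OS, against 9.21 and 4.52% of all genes; median-ratio scaling gave 2 and 2. Nog, the BMP antagonist noggin, had 1.49, 1.25 and 1.66 CPM in OS and 25.3, 23.4 and 3.17 CPM in AD (log2 fold change -2.50, SE 0.41, adjusted p = 1.61e-05; -3.36 without replicate 3). Bmp3, a BMP that opposes osteogenic BMPs, had 3.88, 5.62 and 4.07 CPM in OS and 0.178, 0.887 and 0 CPM in AD (log2 fold change 2.07, SE 0.27, adjusted p = 5.32e-07). Tgfbi, a matrix protein induced by TGF-beta, had 17.3, 17.6 and 16.3 CPM in OS and 3.38, 5.14 and 0.634 CPM in AD (log2 fold change 2.36, SE 0.30, adjusted p = 3.44e-07). Neither Nog, Bmp3 nor Tgfbi had overlapping groups. Tgfb1, the ligand, had 135, 143 and 128 CPM in OS and 68.02, 70.05 and 50.1 CPM in AD (log2 fold change 1.11, SE 0.14, adjusted p = 2.20e-07), and its call held neither without AD replicate 3 (0.96) nor after median-ratio scaling (0.77). Id2, an inhibitor of basic helix-loop-helix factors, had 34.9, 38.4 and 45.8 CPM in OS and 10.5, 16.3 and 20.9 CPM in AD, summed over 2 rows (log2 fold change 1.31, SE 0.24, adjusted p = 6.04e-05), and was just under the threshold after that scaling (0.98).

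Among 6 tested insulin and IGF genes, 2 were lower and 1 higher in OS. Igfbp6, which binds IGF-II by preference, had 1628, 1798 and 1874 CPM in OS and 348, 361 and 131 CPM in AD (log2 fold change 2.79, SE 0.31, adjusted p = 2.32e-08). Igfbp5 and Igfbp6 were therefore opposite in direction. Stc1, a secreted glycoprotein of calcium and phosphate balance, had 5.82, 5.77 and 7.08 CPM in OS and 22.1, 26.2 and 59.1 CPM in AD (log2 fold change -2.22, SE 0.25, adjusted p = 4.64e-08).

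Cyclic AMP and glucocorticoid genes were examined because differentiation media usually act through these pathways. Of 8 tested cyclic AMP genes, 4 were lower in OS and 1 was higher. Pde4b, a cyclic AMP phosphodiesterase, had 0.597, 2.03 and 0.753 CPM in OS and 11.8, 9.58 and 13.5 CPM in AD (log2 fold change -2.62, SE 0.32, adjusted p = 1.54e-07). Pde3b, the phosphodiesterase through which insulin lowers cyclic AMP in fat cells, had 0.448, 0.312 and 0.603 CPM in OS and 3.74, 3.01 and 3.01 CPM in AD (log2 fold change -1.55, SE 0.30, adjusted p = 1.39e-04). Both phosphodiesterases were higher in every AD sample. Pde7b and Gem were also lower in OS (-1.08 and -1.32), and neither passed without AD replicate 3 (-0.84 and -0.75).

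Of 10 tested glucocorticoid response genes, 1 was lower in OS and none was higher, against 4.52 and 9.21% of all genes. Without AD replicate 3 there were 3 lower, after median-ratio scaling 2 and by edgeR 3. The median log2 fold change of the list was 0.12, against 0.16 for all genes; it was 0.55 without AD replicate 3 and -0.13 after median-ratio scaling. All OS samples were above all AD samples at 4 of the 10 genes and below them at 3, against 32.8 and 12.2% of all genes. Aox1, an aldehyde oxidase, had 992, 929 and 959 CPM in OS and 4010.5, 4085 and 6352 CPM in AD (log2 fold change -2.29, SE 0.20, adjusted p = 1.82e-10), against 97.98 ± 3.00 CPM (SD, n = 3) at 0 h, so that it was above the starting level in both media and highest in AD. Mt2A, a metallothionein, had 2512, 2459.6 and 2488 CPM in OS and 5138, 5737 and 3928 CPM in AD and lay just under the fold threshold (log2 fold change -0.97, SE 0.13, adjusted p = 7.79e-07), which it passed without AD replicate 3 (-1.13) and after scaling (-1.31). Sgk1, a kinase induced by glucocorticoids, had 0.448, 0 and 0 CPM in OS and 1.42, 1.42 and 0.158 CPM in AD (log2 fold change -0.74, SE 0.29, adjusted p = 0.0465), and it passed without AD replicate 3 (-1.10). On the OS side, Hsd11b1, which regenerates active glucocorticoid, had 341, 401 and 399 CPM in OS and 202, 199.9 and 181 CPM in AD and was also just under the fold threshold (log2 fold change 0.96, SE 0.10, adjusted p = 2.91e-09). Tsc22d3, Angptl2 and Cry2 gave 0.82, 0.81 and 0.70, all under the threshold.

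Of 18 tested genes of fatty acid and cholesterol synthesis, 4 were higher in OS and none was lower, against 9.21 and 4.52% of all genes. After median-ratio scaling, and by edgeR, 1 was higher and 1 lower. Sqle, the squalene epoxidase, had 420.0, 433 and 439.5 CPM in OS and 158, 188 and 307 CPM in AD (log2 fold change 1.04, SE 0.15, adjusted p = 1.34e-06). Cyp51, the lanosterol demethylase, had 797, 753 and 827 CPM in OS and 334, 315 and 456 CPM in AD (log2 fold change 1.12, SE 0.14, adjusted p = 2.32e-07), and Msmo1, the sterol C4-methyl oxidase of the same pathway, gave 1.03. All OS samples were above all AD samples for these enzymes. Sqle was not called without AD replicate 1 (0.84) or 2 (0.96), and Msmo1 was not called without OS replicate 1 (0.99), AD replicate 1 (0.87) or AD replicate 2 (0.94). After median-ratio scaling the 3 enzymes fell under the fold threshold, at 0.70, 0.78 and 0.69, and Acaca, the acetyl-CoA carboxylase, was called lower in OS (-1.30, against -0.99 on deposited values). Without AD replicate 3, 6 genes of the list were higher in OS, Insig1 (1.13) and Srebf2 (1.06) joining the 4.

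Of 19 tested glycolysis and hypoxia genes, 6 were higher and 1 lower in OS, with a median of 0.41; after median-ratio scaling there were 4 and 1. Egln3, the oxygen sensor PHD3, had 26.4, 26.1 and 25.9 CPM in OS and 2.67, 6.74 and 4.75 CPM in AD (log2 fold change 2.31, SE 0.23, adjusted p = 2.85e-09). Pgk1, the phosphoglycerate kinase of glycolysis, had 1183, 1098 and 1178 CPM in OS and 371, 359 and 198 CPM in AD (log2 fold change 1.95, SE 0.16, adjusted p = 4.61e-11). Bhlhe40, a repressor induced by hypoxia, had 239, 240.1 and 241 CPM in OS and 52.3, 66.1 and 128 CPM in AD (log2 fold change 1.64, SE 0.18, adjusted p = 2.42e-08). These 3 genes had no overlap and were called with and without AD replicate 3 and after median-ratio scaling. Bnip3, a mitochondrial protein of hypoxic cells, had 185, 182 and 221 CPM in OS and 80.8, 103 and 102 CPM in AD (log2 fold change 1.03, SE 0.12, adjusted p = 1.02e-07), and scaling took it under the threshold (0.69), as did leaving out OS replicate 3 (0.95) or AD replicate 1 (0.92). Gpi and Ndrg1 were called at 1.16 and 1.43 and not without AD replicate 3 (0.95 and 0.73), and Gpi was also lost after scaling (0.82). Pfkfb3, which makes the activator of phosphofructokinase, was lower in OS with 1.94, 1.09 and 1.21 CPM against 3.03, 4.97 and 16.00 CPM in AD (log2 fold change -1.64, SE 0.38, adjusted p = 0.00102; -1.04 without replicate 3).

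The hypoxia-inducible factors bind the core ACGTG, and the promoters of 4 of these genes are shown with that core in capitals on either strand, in the same window and build. Bhlhe40 lies at chr4:143174200-143174499, plus strand, Bnip3 at chr1:203154913-203155212, minus strand, Gpi at chr1:95993212-95993511, minus strand and Egln3 at chr6:77410966-77411265, minus strand.
Bhlhe40: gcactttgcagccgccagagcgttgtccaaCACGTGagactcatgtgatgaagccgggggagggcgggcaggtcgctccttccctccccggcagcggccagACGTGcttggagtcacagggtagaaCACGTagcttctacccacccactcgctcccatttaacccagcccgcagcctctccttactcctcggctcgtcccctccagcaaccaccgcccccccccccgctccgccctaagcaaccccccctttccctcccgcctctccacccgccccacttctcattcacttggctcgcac
Bnip3: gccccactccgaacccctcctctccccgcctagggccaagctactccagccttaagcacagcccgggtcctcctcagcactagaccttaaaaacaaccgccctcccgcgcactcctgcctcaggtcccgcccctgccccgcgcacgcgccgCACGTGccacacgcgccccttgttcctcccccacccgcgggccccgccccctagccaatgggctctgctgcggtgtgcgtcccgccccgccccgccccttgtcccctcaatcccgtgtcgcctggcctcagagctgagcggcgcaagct
Gpi: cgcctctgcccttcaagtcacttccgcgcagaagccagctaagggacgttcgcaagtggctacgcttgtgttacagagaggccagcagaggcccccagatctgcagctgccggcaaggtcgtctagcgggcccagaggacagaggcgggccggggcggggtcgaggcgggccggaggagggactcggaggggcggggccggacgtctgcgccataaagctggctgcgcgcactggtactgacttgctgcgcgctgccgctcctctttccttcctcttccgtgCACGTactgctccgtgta
Egln3: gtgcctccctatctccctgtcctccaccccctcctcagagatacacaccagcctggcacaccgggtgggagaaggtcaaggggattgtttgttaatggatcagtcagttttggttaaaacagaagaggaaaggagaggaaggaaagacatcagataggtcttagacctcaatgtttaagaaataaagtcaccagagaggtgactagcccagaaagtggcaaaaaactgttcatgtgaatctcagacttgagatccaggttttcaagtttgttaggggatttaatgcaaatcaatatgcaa
Counted on both strands, where a CACGTG counts as 2, Bhlhe40 held 4 matches, Bnip3 held 2, Gpi held 1 and Egln3 held none, against 19.25% of all 33469 promoters with at least 1 match. Egln3 was the gene of this list with the largest difference, and nothing about the factor follows from the letters of its window.

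Almost no gene of respiration or secretion passed the fold threshold. None of 21 tested oxidative phosphorylation genes was called by limma, without AD replicate 3 none, and after median-ratio scaling none, and edgeR on the recovered reads called none. By limma 16 of the 21 had an unadjusted p under 0.05 without reaching the fold threshold. The share of all genes under that p is not given here, so this count has no background to be read against. All OS samples were above all AD samples at 16 of them, against 32.8% of all genes. Their median was 0.57, and 0.23 after median-ratio scaling, next to -0.05 for all genes there. Of 19 tested genes of the secretory pathway and the unfolded protein response, 1 was called higher, Fkbp10, a collagen chaperone (log2 fold change 1.22, SE 0.30, adjusted p = 0.00159), and the call held neither without AD replicate 3 (0.84) nor after scaling (0.92).

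Of 21 tested mitosis genes, 5 were higher in OS and none was lower, at low levels. Kif20a, a kinesin of cytokinesis, had 11.6, 9.99 and 9.94 CPM in OS and 3.74, 4.97 and 1.43 CPM in AD (log2 fold change 1.49, SE 0.20, adjusted p = 8.79e-07), and Hmmr, a spindle protein, had 7.46, 9.21 and 8.74 CPM in OS and 2.49, 3.19 and 2.38 CPM in AD (log2 fold change 1.36, SE 0.24, adjusted p = 3.14e-05). Both groups were well below 0 h, with 103 ± 11.02 CPM (SD, n = 3) for Kif20a and 32.3 ± 1.05 CPM (SD, n = 3) for Hmmr. Cdc20, the activator of the anaphase-promoting complex, was also called in both fits (1.46, and 1.55 without AD replicate 3), whereas Nuf2 and Kif22 were not called without AD replicate 3 (0.86 and 0.82), nor Nuf2 without OS replicate 3 (0.91) or after scaling (0.88). Of 15 tested DNA replication genes, 1 was higher, Rrm1, a subunit of ribonucleotide reductase, with 173, 174 and 195 CPM in OS and 75.3, 72.2 and 43.2 CPM in AD, summed over 3 rows (log2 fold change 1.53, SE 0.14, adjusted p = 3.40e-10); after scaling Cdt1, a licensing factor, was called lower (-1.05).

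Of 21 tested contractile and cytoskeletal genes, 4 were higher in OS and none was lower, against 9.21 and 4.52% of all genes; after median-ratio scaling there were 3 and 1. Actn4, which crosslinks actin, had 209.6, 213 and 200.1 CPM in OS and 66.1, 74.3 and 60.5 CPM in AD, summed over 2 rows (log2 fold change 1.62, SE 0.16, adjusted p = 2.67e-09). Myocd, the coactivator of smooth muscle genes, had 5.67, 3.74 and 3.31 CPM in OS and 0, 0.177 and 0.158 CPM in AD, 2 reads in all (log2 fold change 2.22, SE 0.37, adjusted p = 1.60e-05). Vcl, a focal adhesion protein, gave 1.38, and Tpm4 gave 1.10 and did not pass without AD replicate 3 (0.75) or after scaling (0.76). Synpo2, an actin-binding protein, was the gene called lower after scaling (-1.01, against -0.78 on deposited values).

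Among transporters, 2 of 11 tested genes were lower in OS and none was higher. Slc16a1, the lactate and pyruvate carrier MCT1, had 616, 646 and 669.6 CPM in OS and 2856, 2412 and 3223 CPM in AD. Every AD sample had several times the OS level (log2 fold change -2.13, SE 0.10, adjusted p = 4.38e-16), and the value was -2.03 without AD replicate 3. Slc38a2, a neutral amino acid carrier, was called at -1.02 and not without AD replicate 3 (-0.52), OS replicate 2 (-0.97) or OS replicate 3 (-0.85). Slco2a1, a prostaglandin carrier, was called lower in OS without AD replicate 3 (-2.06) and after scaling (-1.25), and not on all samples (-1.02). Of 7 immediate early and stress genes 1 was lower, Gadd45a, a growth arrest gene, with 5.97, 6.87 and 4.37 CPM in OS and 18.3, 19.9 and 24.6 CPM in AD (log2 fold change -1.71, SE 0.30, adjusted p = 4.15e-05). Of 12 interferon and antigen presentation genes 2 were higher, Oasl2 (1.78) and Ifit1 (1.22), and Ifit1 did not pass without AD replicate 3 (0.99); after scaling Ifi44 was called lower (-1.05).

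**Figure D4:**
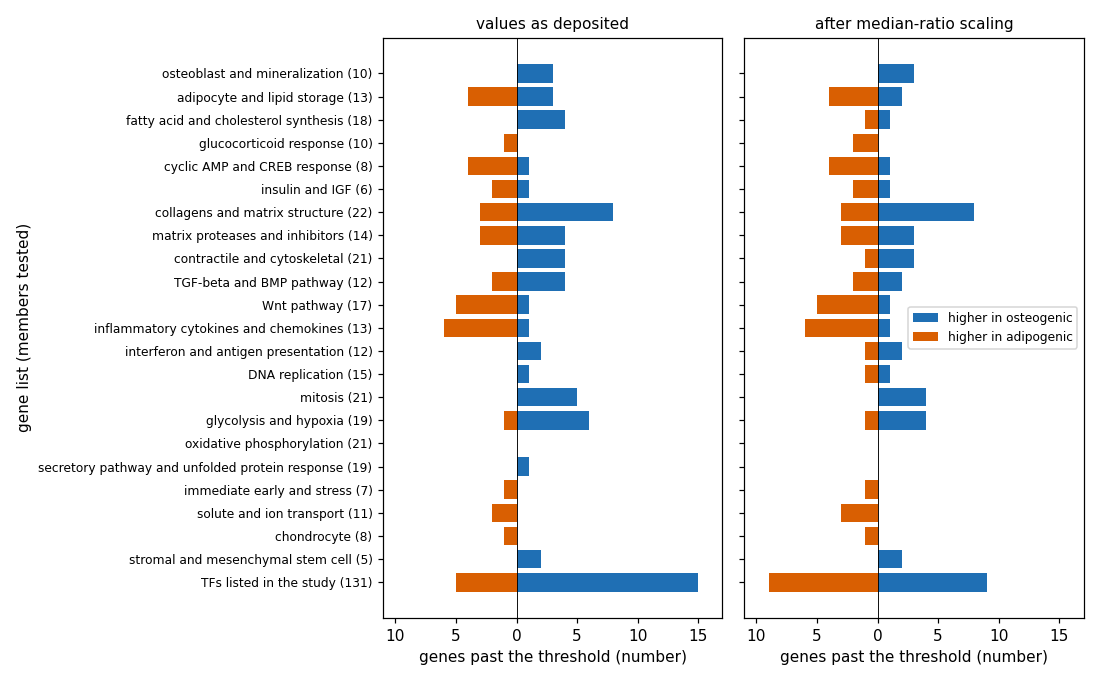
Bars give the number of genes past the threshold in each list, higher in OS to the right in blue and higher in AD to the left in orange, with the number of members tested in brackets, on deposited values (left panel) and after median-ratio scaling (right panel). The inflammatory list has 6 genes to the left in both panels and the Wnt list 5, while the listed transcription factors go from 15 and 5 to 9 and 9.

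Markers of other cells that marrow cultures can hold were at low levels. In the stromal list 2 of 5 tested genes, Thy1 and Itgb1, were called, both higher in OS. The list median was 0.01, against 0.16 for all genes. It was 0.36 without AD replicate 3 and -0.14 after median-ratio scaling, against 0.14 and -0.05 for all genes. Snai2, also of this list, was higher in every AD sample and not called (-0.64). Thy1, Itgb1 and Cd44 were well expressed, Cd44 with 300.2, 294 and 311 CPM in OS and 258, 309 and 337 CPM in AD. Eng, Alcam, Vcam1 and Nes lay at or below 0.298 CPM. The 5 macrophage and monocyte genes in the table summed to 0.151 to 1.19 CPM in OS and 2.38 to 4.81 CPM in AD, with Mrc1 listed at 0 throughout and Csf1r at or below 0.178 CPM. Lyz2, the macrophage lysozyme, was listed at 0 in OS and had 1.42, 1.24 and 2.06 CPM in AD, at least 3.36-fold higher in AD against the floor of 3 reads per library. These sums were higher in AD, as the chemokine genes were, and their part in that result was not tested. The 6 endothelial genes summed to 3.72 to 7.08 CPM over all samples with Kdr, Esam, Erg and Sox17 at or below 0.156 CPM, where Tek was called (1.27) and not without AD replicate 3 (0.66). The erythroid, lymphoid, skeletal muscle and Schwann lists each summed to 6.71 CPM or less. In these lists Actn2 (1.11) and Ngfr (1.18) were called higher in OS, each at or below 3.12 CPM in every sample. Neither call held without OS replicate 2 (0.98 and 0.83), nor that of Actn2 without OS replicate 3 (0.96) or AD replicate 2 (0.98). Of 8 chondrocyte genes tested 1 was called, and without AD replicate 3 Sox9 as well. The first was Prg4, lubricin, with 0.149, 0 and 0 CPM in OS and 1.42, 1.95 and 5.23 CPM in AD.

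The difference between OS and AD was also set against that at 12 h, in the same model. At 3 h 334 genes differed (7.66%) and at 12 h 574 (13.2%). Of the genes called at 12 and 72 h, 182 were shared, 30.4% of the 72 h calls and 31.7% of the 12 h calls; 171 had the same direction and 11 the opposite one. The difference itself changed between 12 and 72 h at 621 genes (14.2%), by the interaction term of the model, with 380 changes towards OS (8.71%) and 241 towards AD (5.52%), and 269 of the 621 were also called at 72 h. This split depended on the scaling as well, with 246 changes towards OS and 322 towards AD under median ratios and 282 and 285 under quantile normalization. AD replicate 1 at 12 h lay apart from its group, and without it 669 genes had a changed difference. Without AD replicate 3 at 72 h there were 594, 316 towards OS and 278 towards AD.

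The 11 genes of opposite direction were Apln, Cavin2, Chrm2, Id2, Ifrd2, Map2k6, Meox2, Mogat2, Rnd1, Tdo2 and Tsc22d1, a set chosen after its values were seen. Calls of opposite direction imply a change of the difference of at least 2 log2 units, so no test of that change is given for them. At 72 h Map2k6 was not called without AD replicate 3 (0.63) or after scaling (0.79), and Rnd1 moved from -1.67 to -2.37 without that sample. Meox2, a mesodermal homeobox factor, had 64.8, 70.1 and 73.3 CPM in OS and 478, 281 and 280.3 CPM in AD at 12 h. At 72 h it had 616, 679.6 and 668 CPM in OS and 360.4, 293 and 215 CPM in AD. Its order was thus reversed between the 2 times, with no overlap at either time; the log2 fold changes were -2.26 and 1.21, and the change between them was 3.46. Id2 went from -1.06 to 1.31 and Tsc22d1, a leucine zipper protein induced by TGF-beta, from -1.34 to 1.25. These 3 genes kept the sign at 72 h after median-ratio scaling but not the fold threshold (0.86, 0.98 and 0.92), and Tsc22d1 was also under it without AD replicate 1 at 72 h (0.92).

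Cavin2, a coat protein of caveolae, had 1.36, 0.299 and 0.914 CPM in OS and 12.9, 6.45 and 6.85 CPM in AD at 12 h and 47.7, 47.9 and 54.99 CPM in OS and 13.00, 12.8 and 12.4 CPM in AD at 72 h. The OS level had gone from below all AD samples to above all of them (change of the difference 4.27). Chrm2, the muscarinic M2 receptor, had 0.151, 0 and 0.305 CPM in OS and 20.2, 4.97 and 2.59 CPM in AD at 12 h, and 11.2, 11.4 and 11.8 CPM in OS and 2.67, 2.13 and 1.11 CPM in AD at 72 h. Its change of difference was 4.85, and 4.12 without AD replicate 1 at 12 h. Apln, the ligand of the apelin receptor, turned the other way, from 12.7, 12.9 and 16.5 CPM in OS and 3.51, 4.42 and 8.51 CPM in AD at 12 h to 3.28, 2.65 and 3.16 CPM in OS and 31.2, 35.5 and 9.66 CPM in AD at 72 h (-3.80).

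**Figure D5:**
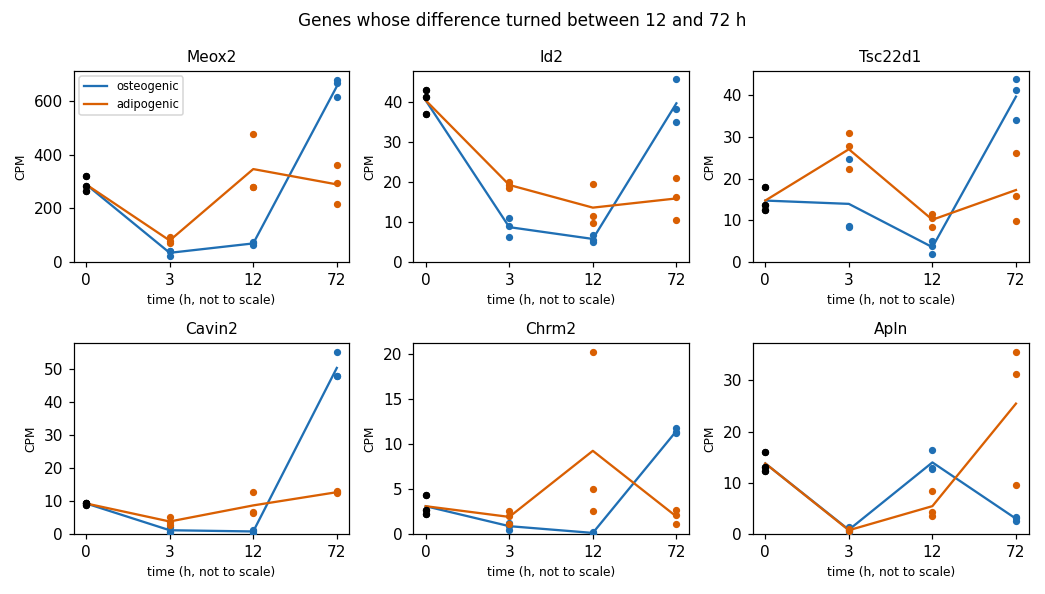
The level of 6 genes is plotted in CPM at 0, 3, 12 and 72 h, with 1 point per sample, lines through the group means, black points for uninduced cells, blue for OS and orange for AD. For Meox2, Id2, Tsc22d1, Cavin2 and Chrm2 the blue line is below the orange line at 12 h and above it at 72 h, and for Apln the order is the reverse.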

How the data were processed

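RNA was sequenced from 30 samples in 10 groups of 3. The authors trimmed reads (Trimmomatic), aligned them (HISAT2) and assembled transcripts (StringTie) per the labels; versions are not given in the sources used here, nor is the genome build. The deposited values are CPM of all reads of a library, in 10803 rows per sample. Every value was a whole number of reads within 0.01. Rows sharing a name were summed (729 names).

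All 30 samples entered 1 limma model of 10 groups on log2(CPM + 1), with trended variance and Benjamini-Hochberg adjustment over 4363 genes; fold changes are on this scale, which understates those of low genes. Simulated data on 4363 genes gave 87 of 100 4-fold and 35 of 100 2-fold changes recovered by limma, with 14 of 4163 unchanged genes called. The simulation held no difference in the share of listed reads between the groups and no sample lying apart. Its rates therefore do not cover these features of the data. Counting intervals and floors cover counting error only.

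Named genes were the 15 largest per direction without overlap, all list members, 15 transcription factors and the 5 largest interaction changes per direction; 4 of these genes are not reported here by name but count in the fits and lists. The samples, lists and tests were chosen with earlier results of these data known. The fit was repeated with 0.1 as pseudocount, without the filter, under quantile, median-ratio and listed-gene scaling, on the 6 samples alone, with a replicate block, without each sample, with shared names apart, and with edgeR and DESeq2 on recovered reads. The alternatives without AD replicate 1 at 12 h and without AD replicate 3 under median-ratio scaling were added after seeing the data. R 4.3.3, limma 3.58.1, edgeR 4.0.16 and DESeq2 1.42.0 were used. Of the names, 8356 matched a RefSeq symbol and 454 a synonym; 15 had been turned into dates.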

Additional observations from a re-analysis of the deposited data

Results flagged for a closer look

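The difference between OS and AD changed between 12 and 72 h at 621 of 4363 genes (14.2%), by the interaction term of the limma model. Of the 44 genes named by rule and reported here, 27 were among them, 16 with a change towards OS and 11 towards AD. Some of the 44 were named for the largest interaction changes, and others for a large 72 h difference, which is part of the same term. The count of 27 is therefore not to be read against the 14.2% of all genes. No group had more than 3 samples, so single samples were not tested as outliers.

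The changes towards OS were 4.85 for Chrm2, 4.52 for Sema3d, 4.31 for Fibin, 4.27 for Cavin2, 4.15 for Itgbl1, 3.84 for Rarres1, 3.80 for Ramp1, 3.67 for Smpd3 and 3.37 for Cadm4, on the log2 scale. Smaller ones were 3.13 for Tsc22d3, 2.73 for Lama5, 2.52 for Cd109, 2.43 for Plac9, 1.80 for Snai2, 1.54 for Sema7a and 1.19 for Pparg. At 72 h Pparg had at most 16 reads in an OS sample and 6 in an AD sample, and edgeR did not call its 72 h difference. Fibin, a secreted protein found in fin development, had 2.26, 2.24 and 1.22 CPM in OS and 33.8, 23.9 and 32.01 CPM in AD at 12 h, and 163, 176 and 174 CPM in OS and 97.04, 95.9 and 82.8 CPM in AD at 72 h. Tsc22d3 had 66.9, 81.2 and 76.01 CPM in OS and 369, 348 and 402 CPM in AD at 12 h, so that its OS samples went from below AD to above it by 72 h. Snai2 had 9.19, 6.73 and 9.14 CPM in OS and 21.6, 65.9 and 82.5 CPM in AD at 12 h.

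The changes towards AD were -5.25 for Car4, -4.70 for Ccr1, -4.12 for Gch1, -3.96 for Vat1l, -3.96 for Gprc5a, -3.95 for Sfrp2, -3.94 for Mmp13, -3.54 for C4b, -2.52 for Frzb, -1.49 for Steap4 and -1.49 for Hopx. Ccr1, a chemokine receptor, had 222, 222 and 208 CPM in OS and 5.12, 3.50 and 2.41 CPM in AD at 12 h, and at 72 h 1.19, 2.96 and 4.52 CPM in OS and 1.07, 0.887 and 0.95 CPM in AD. Gch1, the enzyme that starts tetrahydrobiopterin synthesis, had 31.6, 27.5 and 28.03 CPM in OS and 2.49, 0.921 and 1.48 CPM in AD at 12 h, and at 72 h 0.746, 2.50 and 0.452 CPM in OS and 3.20, 2.84 and 0.792 CPM in AD. Gprc5a, an orphan receptor induced by retinoic acid, had 67.04, 63.1 and 60.5 CPM in OS and 2.93, 0 and 0.925 CPM in AD at 12 h, and at 72 h 0.895, 1.72 and 1.81 CPM in OS and 0.534, 0 and 0 CPM in AD. These 3 genes were higher in OS at 12 h and close to AD or at low counts at 72 h. The 27 genes were chosen for passing the interaction test on all samples, so passing it again on most of these samples is not independent evidence. For Chrm2 and Cavin2 the calls of opposite direction at 12 and 72 h already imply such a change. All 27 passed it without AD replicate 1 at 12 h and without AD replicate 3 at 72 h. Without the latter sample the values of Sema3d, Itgbl1, Sfrp2, Mmp13, Frzb, Car4, C4b and Vat1l moved by more than 1.5 times, to 3.26, 2.75, -5.78, -5.13, -3.34, -6.81, -4.18 and -4.76. Without AD replicate 1 at 12 h, those of Chrm2, Sfrp2 and Plac9 became 4.12, -4.68 and 1.83.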

How the results depend on the processing

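The direction split moved with the scaling: 237 genes were higher and 332 lower in OS under median-ratio scaling, 240 and 352 after rescaling to the listed genes, and 207 and 320 under median-ratio scaling without AD replicate 3. On recovered reads edgeR called 389 and DESeq2 425 genes lower in OS. The 0 point of the comparison thus depends on whether all reads or the listed genes are taken as the reference. The count tests called 700 genes each, of which 460 (edgeR) and 431 (DESeq2) were shared with limma. Quantile normalization gave 292 higher and 236 lower.

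Leaving out 1 of the 6 samples gave 527 to 703 genes, 302 to 496 higher and 195 to 225 lower in OS, 19 to 25 listed transcription factors, and 571 to 669 genes with a changed difference between 12 and 72 h. The deviations of same-numbered OS and AD samples from their group means had correlations of -0.066, -0.050 and -0.027. With 3 samples a group and AD replicate 3 apart, this cannot show whether equal numbers shared an animal or batch. The labels do not say. With a replicate block in the 6 samples alone 196 genes were called, 139 higher and 57 lower, with 9 listed transcription factors, against 469 in those samples without the block. A pseudocount of 0.1 gave 779 genes, no filter 614 and shared names apart 616. Over 141 named genes, 2259 of 2538 values kept their side of the threshold, 275 lost it (70 under the block), 4 gained it and none turned. Most of the 141 were named because they were called on all samples, so few could gain a call. Gains given above for list members not called on all samples, such as Mt2A and Insig1, are not in this count. Fits that leave out 1 sample share most of their data, so the tally does not measure robustness. Over all genes, 434 of the 599 calls were shared under median-ratio scaling, 460 by edgeR and 431 by DESeq2. At 5616285 to 6702790 reads, genes of a few CPM rest on small read counts.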
